A study of Mus musculus with 16 samples.

Results

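The proteasome genes were taken from the count table as the protein-coding genes whose symbol starts with Psma, Psmb, Psmc, Psmd, Psme, Psmf or Psmg followed by a digit. The prefix took 50 of the 35328 genes, and all 50 passed the filter on low counts that left 17830 genes for testing. The prefix itself uses no measured value, but it was chosen with earlier results of these data known. RNA-Seq was performed on the dorsal hippocampus of 16 male C57Bl6/J mice in 4 groups of 4. HC_water mice drank plain water and HC_Caffeine mice drank water with 0.3 g/L caffeine, both staying in the home cage. MWM_water and MWM_Caffeine mice had the same drinks and were trained for 3 days in the Morris water maze, a spatial memory task in a pool, with tissue taken 1 hour after the last trial. Treatment lasted 2 weeks and started at 8 to 9 weeks of age in all groups, and no transgene or deletion was involved. The comparisons asked whether caffeine changed proteasome mRNA at rest or after training (referred to here as learning), and whether learning changed it under either drink.

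The proteasome is the protease that degrades proteins tagged with ubiquitin. Its barrel-shaped core is built of outer alpha rings, which gate entry, and inner beta rings, which hold the peptide-cutting sites. A regulatory particle caps the core: its ATPase base unfolds and feeds in the substrate, and its lid removes the ubiquitin chain. Other activators (Psme genes) open the gate without ubiquitin, and assembly chaperones help the rings to form. Cells that respond to interferon swap the catalytic beta subunits for immunoproteasome versions (Psmb8, Psmb9 and Psmb10), which favor the cutting of peptides for MHC class I. In neurons, protein degradation by the proteasome is known to be needed for lasting synaptic change and memory.

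The 50 genes lie on 16 chromosomes, 10 of them on chromosome 11 (GENCODE M21, build GRCm38). Psmb8 (ENSMUSG00000024338, chr17:34197721-34201454, plus strand) and Psmb9 (ENSMUSG00000096727, chr17:34181987-34187764, minus strand) are near neighbors in the MHC region of chromosome 17. Of the other genes the results turn on, Psmb1 is at chr17:15475021-15499751 (minus), Psmb6 at chr11:70525367-70527858 (plus), Psmd5 at chr2:34849734-34874968 (minus) and Psmg4 at chr13:34162964-34178173 (plus). Psmc3ip was taken by the prefix although it is no proteasome subunit but a cofactor of meiotic recombination, and it is reported apart. Promoters from RefSeq (build GRCm38.p6, 250 bases before to 50 bases after the annotated start) were found for 42 of the 50 genes. They are shown for 4 of the 6 genes that passed the test for learning below, 2 immunoproteasome subunits, 1 constitutive catalytic subunit and the gene that rose. Capitals mark any match, on either strand, to TGANNNNGC (the core of the antioxidant response element, which factors of the Nfe2l1 and Nfe2l2 family bind), TTCNNNGAA (a motif of interferon response) or CCAAT (the box of the Nfya, Nfyb and Nfyc complex), read 5′ to 3′ on the gene's strand. The regions are chr17:34197945-34198244 on the plus strand for Psmb8, chr17:34187281-34187580 on the minus strand for Psmb9, chr11:70525107-70525406 on the plus strand for Psmb6 and chr2:34870913-34871212 on the minus strand for Psmd5. Those of Psmb8, Psmb9 and Psmd5 lie inside the GENCODE gene given above, so their motif positions hold for the RefSeq start only.
Psmb8: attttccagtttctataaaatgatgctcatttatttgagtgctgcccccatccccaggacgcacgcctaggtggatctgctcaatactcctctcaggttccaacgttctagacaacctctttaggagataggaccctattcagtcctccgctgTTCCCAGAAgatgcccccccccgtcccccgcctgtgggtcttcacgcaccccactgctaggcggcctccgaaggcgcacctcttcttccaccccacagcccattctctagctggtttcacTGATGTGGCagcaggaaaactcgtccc
Psmb9: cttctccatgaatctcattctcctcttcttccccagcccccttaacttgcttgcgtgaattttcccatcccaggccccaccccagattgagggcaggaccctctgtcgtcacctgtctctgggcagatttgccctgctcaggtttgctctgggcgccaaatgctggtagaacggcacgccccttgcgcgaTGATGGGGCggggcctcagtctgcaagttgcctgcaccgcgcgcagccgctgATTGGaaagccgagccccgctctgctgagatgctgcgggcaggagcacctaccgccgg
Psmb6: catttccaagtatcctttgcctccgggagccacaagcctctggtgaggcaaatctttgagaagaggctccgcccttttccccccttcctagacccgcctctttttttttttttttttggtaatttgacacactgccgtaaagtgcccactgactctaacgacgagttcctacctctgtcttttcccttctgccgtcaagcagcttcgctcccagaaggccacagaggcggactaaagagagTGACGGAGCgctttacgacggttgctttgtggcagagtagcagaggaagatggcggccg
Psmd5: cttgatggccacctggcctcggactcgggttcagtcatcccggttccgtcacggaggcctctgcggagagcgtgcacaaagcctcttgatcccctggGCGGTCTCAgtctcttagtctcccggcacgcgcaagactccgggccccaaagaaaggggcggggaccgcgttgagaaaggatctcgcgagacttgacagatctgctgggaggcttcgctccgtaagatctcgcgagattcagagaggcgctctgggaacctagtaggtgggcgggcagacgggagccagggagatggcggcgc

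The antioxidant element core was in 23 of the 42 promoters (54.8%), against 41.3% of all 32851 promoters of this length in the table. It was in all 4 shown, starting 24 bases into the Psmb8 transcript and 60, 9 and 153 bases before the start of Psmb9, Psmb6 and Psmd5. TTCNNNGAA, the interferon gamma activated site, was in 3 of 42 promoters (7.14%, against 8.3% of all), those of Psmb8, Psmd2 and Psmg1. In Psmb8 it began 97 bases before the start. No other motif of interferon response was searched, so promoters without this match may hold one. The CCAAT box was in 15 of 42 (35.7%, against 37.4%), Psmb9 among them. These are letter matches only, and no binding was measured here.

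The libraries held 23078094 to 49949281 counts, so that a proteasome gene had from 3 counts (Psma8 in the shallowest library) to 8438 counts (Psmd2). The 50 genes together took 0.2958% to 0.326% of all counts. Levels within a gene are given as CPM, the counts scaled to the library total after TMM normalization. The summed CPM of the 50 genes was 3144 ± 111 in HC_water, 3134 ± 68.6 in HC_Caffeine, 3132 ± 24.3 in MWM_water and 3075 ± 64.9 in MWM_Caffeine (mean ± SD, n = 4 each). These sums overlapped between all groups. A list of 8 hippocampal neuron genes had a summed level of 3105 to 3743 CPM over the 16 libraries. Most of it was Snap25 (group means of 2293 to 2321 CPM), which other neurons also express. The sum therefore cannot tell the hippocampus from other neuronal tissue. Prox1 ran from 85.9 to 180 CPM and Wfs1 from 101 to 176 between mice. HC_Caffeine replicate 17 stood apart in several measures. It had the highest mitochondrial share (4.495% of counts, against 3.232% to 3.889% in the others) and the most negative slope of expression on transcript length (-0.0741, against -0.0281 or higher). It also held the highest value of all 16 mice for 9 proteasome genes and the lowest for 7. HC_water replicate 6 held the highest value for 15 and the lowest for 0. Among trained mice, MWM_water replicate 38 had the most positive slope of all 16 (0.0481), with the highest value for 8 genes and the lowest for 6. Results that rest on HC_Caffeine replicate 17 or HC_water replicate 6 are given with and without them. In bulk tissue, fewer cells of a type and less RNA per cell cannot be told apart.

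Levels between genes are given in CPM per kb of exon union, which allows genes of different length to be compared. The proteasome genes were abundant, with a median of 21.7 CPM per kb against 3.55 for all genes tested. The alpha ring genes (Psma1 to Psma7) ran from Psma3 at 6.21 ± 0.256 to Psma6 at 71.7 ± 2.88 CPM per kb (mean ± SD over 16 mice). This is an 11.6-fold range on this scale, although the ring holds their products in equal number. The width depends on the length used. Per kb of the median annotated transcript, Psma6 was again highest at 104, Psma3 was at 27.6 and Psma5 was lowest at 16.5. The non-catalytic beta genes ran from Psmb3 at 7.18 ± 0.752 to Psmb4 at 65.6 ± 3.81. The ATPases, motors of the base, had a median of 47.2 CPM per kb. Among them, Psmc2 was lowest at 21.6 ± 0.972 and Psmc5 was highest of all 50 genes at 104 ± 3.71. The 3 non-ATPase base genes ran from Psmd1, a scaffold, at 16.3 ± 1.36 to Psmd2, the other scaffold, at 41.3 ± 1.35. The 8 lid genes ran from Psmd11 at 6.51 ± 0.337 to Psmd7 at 46.4 ± 1.71, with Psmd14, the deubiquitinase, at 32.0 ± 1.57. Per kb of the median annotated transcript, other genes were at these ends. Psmd4 was then the lowest non-ATPase base gene at 81.3, with Psmd1 at 171. The lid genes ran from Psmd12 at 36.7 to Psmd14 at 160.

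The assembly chaperones, the inhibitor and most activators were in the lower part of the order on this scale. Per kb of the median annotated transcript, however, Psme4 was at rank 8, Psmd5 at rank 24 and Psmd9 at rank 29. The base assembly chaperones reached 10.0 ± 0.687 (Psmd10) and went down to 4.03 ± 0.249 (Psmd9) CPM per kb of exon union. Per kb of the median transcript, Psmd10 was instead the lowest of them at 10.45 and Psmd5 the highest at 57.3. The core assembly chaperones ran from Psmg3 at 2.71 ± 0.129 to Psmg2 at 9.16 ± 0.582 CPM per kb of exon union. Psmf1, the inhibitor, was at 5.17 ± 0.32. The activators had the widest range, 76.5-fold, from Psme2b at 0.455 ± 0.136 to Psme3, the nuclear activator, at 34.8 ± 1.37. That width rests on Psme2b, which had only 4 to 23 counts per library. The next lowest activator was Psme2 at 4.57 ± 0.44. Psma8, the alpha subunit of the testis, was at 0.138 ± 0.0525, and Psmb11, the thymus subunit, was lowest of all at 0.0655 ± 0.0198, with 5 to 22 counts per library.

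**Figure D1:**
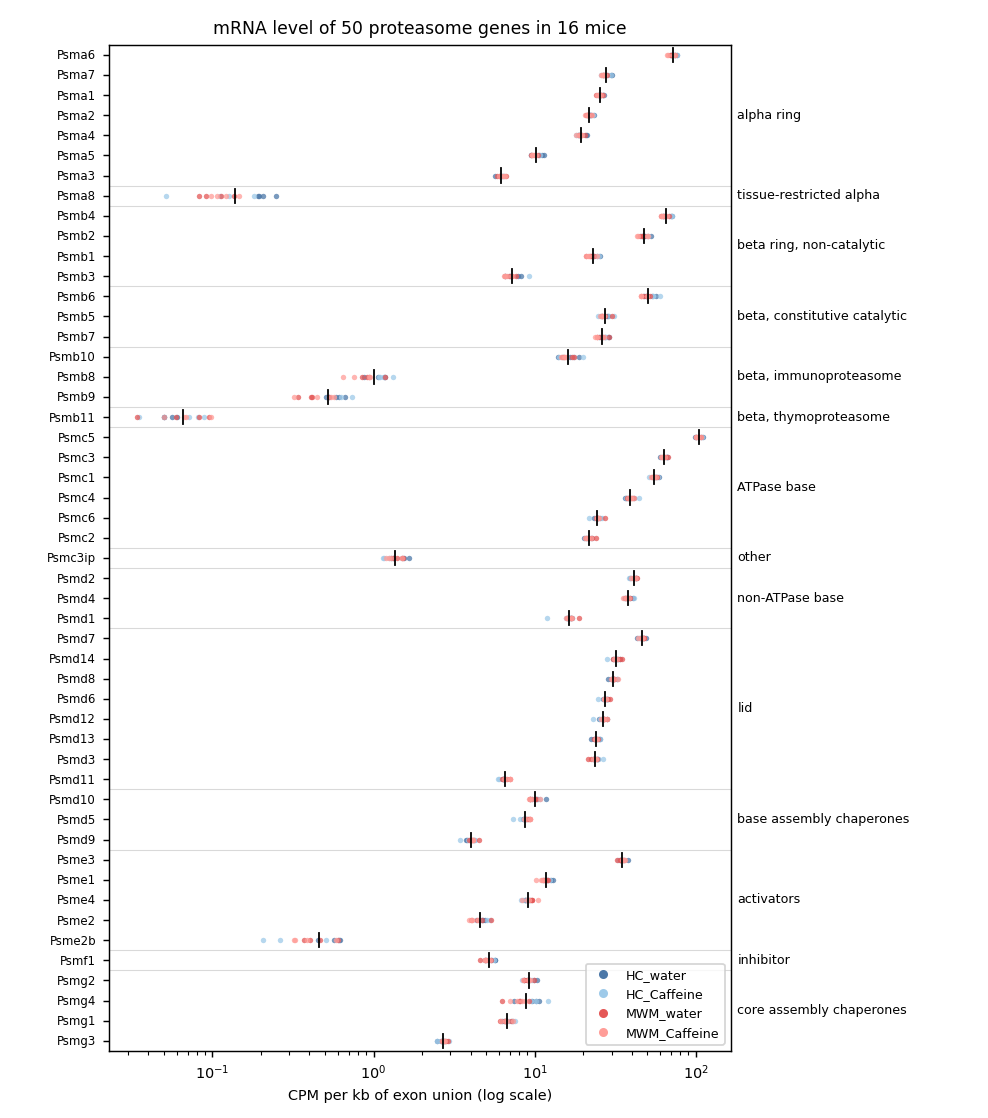
Level of each of the 50 proteasome genes in CPM per kb of exon union (log axis), with a point for each of the 16 mice colored by group and a black bar at the mean, genes sorted by role. Psmc5 is highest at 104, Psmb11 lowest at 0.0655, and for most genes the 16 mice lie close together.

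In the order of levels, 6 of the 49 neighboring pairs were apart in all 16 mice: Psmc5 above Psma6, Psmc3 above Psmc1, Psmb10 above Psme1, Psma3 above Psmf1, Psmd9 above Psmg3, and Psmg3 above Psmc3ip. The other neighbors overlapped between mice. The order depends on the length used. Per kb of the median annotated transcript, Psmd2 was first and Psmc5 rank 11, while Psmb8, Psmb9, Psmc3ip, Psme2b, Psma8 and Psmb11 kept the last places in a slightly different order. Exon sharing limits some of these levels, because the authors kept uniquely aligned reads. Of windows as long as a read (50 bases), 69.3% of those of Psme2b, 54.1% of Psmb5 and 50% of Psma5 also occur in transcripts of another gene. For Psme2b and Psme2 (28.3%) the other gene is mainly each other. Reads of those windows would not be kept, so both levels may be too low. The share also counts genes that overlap at the same place, such as Psmd9 with Gm26745. Reads there can still align uniquely. For 38 of the 50 genes the share was 10% or less.

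The catalytic subunits set the constitutive and immunoproteasome forms side by side. Psmb6, which carries the caspase-like site, was at 50.6 ± 4.21 CPM per kb, and Psmb9, which takes its place, was at 0.522 ± 0.113. Their ratio over 16 mice was 101 ± 22. Psmb5, the chymotrypsin-like subunit, was at 27.3 ± 1.68 and its immunoproteasome form Psmb8 at 1.004 ± 0.179, with a ratio of 28.0 ± 4.7. Of the read-length windows of Psmb5, 54.1% also occur in transcripts of another gene, so its level and this ratio may be too low. The pair of trypsin-like subunits was different: Psmb7 was at 26.3 ± 1.72 and Psmb10 at 16.2 ± 1.68, a ratio of 1.64 ± 0.15. Per kb of median transcript, these ratios were 55.0, 12.1 and 1.29, so Psmb10 remained far closer to its partner than Psmb8 and Psmb9 did on either scale.

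The mRNA of the proteasome varied little between mice of a group. The median SD within groups was 0.0739 on the log2 CPM scale over the 50 genes and 0.151 over all genes tested. Abundant genes have less counting error. Among genes averaging 5 or more on the log2 CPM scale, it was 0.0642 over 31 proteasome genes and 0.0937 over 6361 genes. Psmb11 (0.412), Psme2b (0.395), Psma8 (0.357), Psmb9 (0.259), Psmg4 (0.212) and Psmb8 (0.203) were the most variable, and these 6 were the only proteasome genes above the median of all genes tested.

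**Figure D2:**
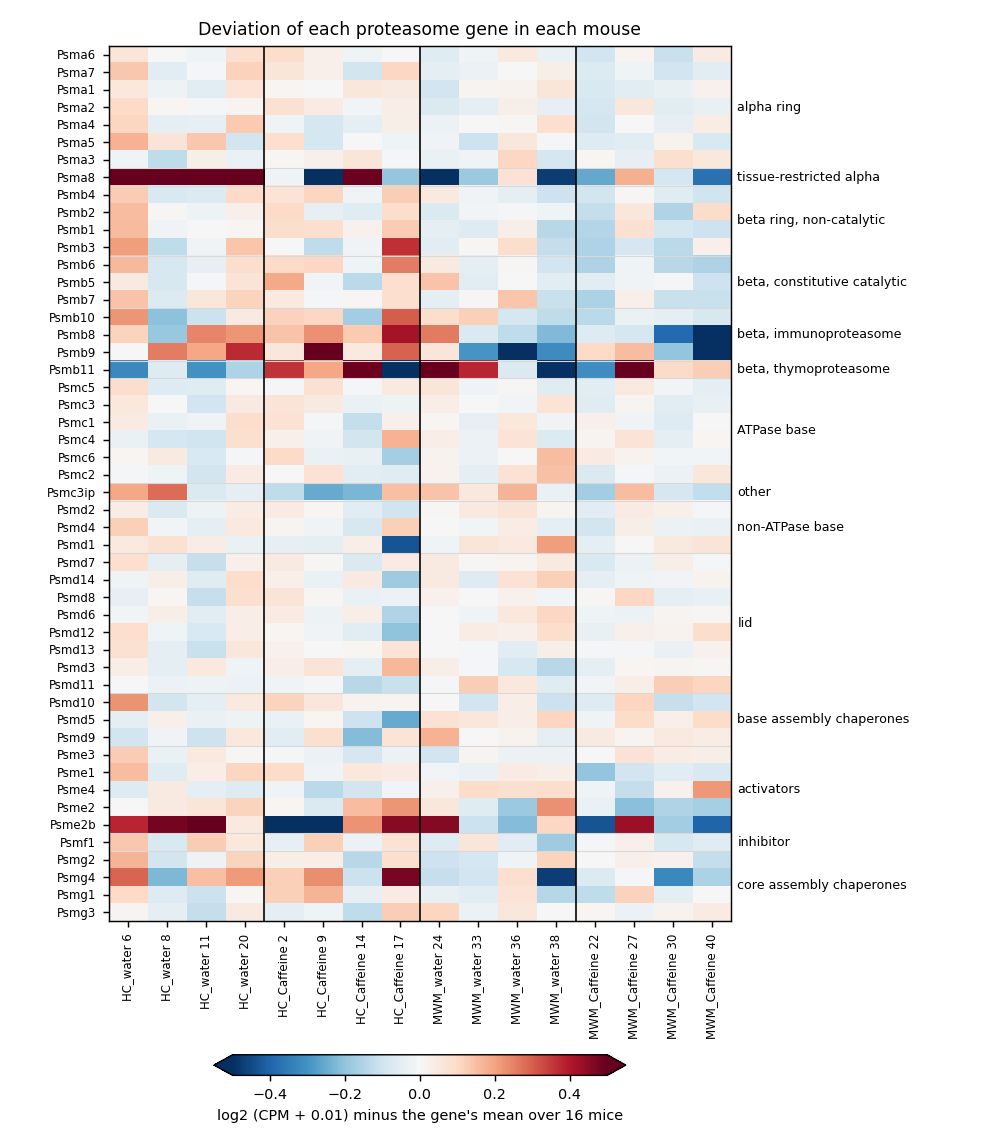
Heat map of log2 (CPM + 0.01) of each proteasome gene (rows, by role) in each of the 16 mice (columns, by group and replicate number) minus the gene's mean over the mice, with the color scale limited to 0.5 on either side. Most cells are pale. Strong colors are in Psma8, Psmb8, Psmb9, Psmb11, Psme2b and Psmg4 and in HC_Caffeine replicate 17.

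At rest, no proteasome gene passed the test for caffeine (edgeR quasi-likelihood test, Benjamini-Hochberg adjusted P under 0.1 over all 17830 genes), higher or lower, and neither did any other gene (0% of all genes tested in each direction). At an unadjusted P under 0.05, 0 proteasome genes were higher and 1 was lower, against 636 of all genes in both directions, and DESeq2 called none of the 50. The median log2 fold change of the 50 genes was 0.0073, against -0.0031 for all genes, with 26 above and 24 below 0. The sign of this median changed when the trend with transcript length and GC content was removed (-0.0036), and without HC_water replicate 8 or 11 (-0.0068 and -0.0133) or HC_Caffeine replicate 2 or 17 (-0.0073 and -0.0046). It was 0.0010 without HC_Caffeine replicate 9, and 0.0121, 0.0162 and 0.0148 without HC_water replicate 6 or 20 or HC_Caffeine replicate 14. For 43 of 50 genes (86%) the 95% confidence interval lay within a 1.25-fold change either way, as it did for 52.8% of all genes tested. These shares were not matched for level. The median SE was 0.0563 over the 50 genes and 0.104 over all genes, which makes intervals of the 50 narrower.

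The gene of smallest P was Psma8. Its CPM in the 4 HC_water mice was 0.476, 0.510, 0.482 and 0.618, and in the HC_Caffeine mice 0.315, 0.129, 0.454 and 0.279. All caffeine mice lay below all water mice, but these values stand for 3 to 23 counts, and the log2 fold change of -0.78 ± 0.285 (SE) had an adjusted P of 0.997. It was the only proteasome gene whose groups did not overlap, 2% of the 50 against 1.99% of all genes. Psmd1, a scaffold of the base, was at 122, 124, 121 and 115 CPM in HC_water and at 114.5, 113.7, 120 and 87.2 in HC_Caffeine, with a log2 fold change of -0.14 ± 0.0777 (adjusted P = 0.997). The low value came from replicate 17, and without it the difference was -0.049. Psme3 followed with -0.077 ± 0.0445 (adjusted P = 0.997).

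After learning, caffeine likewise changed no proteasome gene by the test (0% of all genes in each direction). No proteasome gene had an unadjusted P under 0.05, against 700 of all genes, and DESeq2 called none. The median was -0.026, with 35 of 50 genes below 0, against -0.0043 and 51.9% below 0 for all genes. Without MWM_Caffeine replicate 22 it was -0.0124, with 28 genes below 0, and without MWM_water replicate 24 or 36 it was -0.0161 or -0.0169. Psme1, a subunit of the interferon-inducible activator, had the smallest P. It was at 25.6, 25.2, 26.55 and 26.3 CPM in MWM_water and at 22.5, 24.2, 24.8 and 24.5 in MWM_Caffeine. Its groups did not overlap, alone among the 50 (2%, against 2.6% of all genes), and its log2 fold change was -0.11 ± 0.0556 (adjusted P = 0.999). Psme2, the partner of Psme1, had -0.16 (adjusted P = 0.999) and Psmb8 -0.25 (adjusted P = 0.999). Averaged over both conditions, the caffeine difference had a median of -0.015. It was -0.0021 and -0.0071 without HC_water replicate 6 or 20, -0.00093 without HC_Caffeine replicate 14, -0.0072 without MWM_water replicate 36 and -0.0058 without MWM_Caffeine replicate 22. In this comparison no gene of the 50 and none of all genes passed in either direction (0% each). Of the intervals, 45 of 50 (90%) lay within 1.25-fold, against 66.1% for all genes, again not matched for level. At an unadjusted P under 0.05 this comparison held 0 proteasome genes and 725 of all genes, and DESeq2 called no proteasome gene. Its smallest P values were those of Psmd1 (-0.10), Psmc3ip (-0.17) and Psme1 (-0.064), each with an adjusted P of 0.985.

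Learning changed no proteasome gene by the test in water-drinking mice, where 0.639% of all genes were called higher and 0.331% lower. At an unadjusted P under 0.05, 0 were higher and 2 lower, against 2096 of all genes (11.8%) in both directions, and DESeq2 called none. The median log2 fold change was -0.021, against -0.0055 for all genes. It was 0.014 without HC_water replicate 6, -0.0026 without HC_water replicate 20, -0.0068 without HC_Caffeine replicate 2, -0.0135 without MWM_water replicate 33 and -0.0066 without MWM_Caffeine replicate 22. The 2 were Psma8 and Psmb9. Psma8 was at 0.206, 0.281, 0.337 and 0.228 CPM in MWM_water, all below HC_water, with 7 to 13 counts per library after learning and a log2 fold change of -0.99 ± 0.288 (adjusted P = 0.159). Psmb9 was at 1.87, 2.23, 2.14 and 2.42 CPM in HC_water and at 1.95, 1.52, 1.24 and 1.498 in MWM_water. The groups overlapped in a single mouse, and the log2 fold change was -0.48 ± 0.189 (adjusted P = 0.318). Psmf1 followed with -0.12 ± 0.0631 (adjusted P = 0.482). Psmd5 was above the home cage in every trained mouse, but by 0.088 ± 0.053 (adjusted P = 0.537). Together with Psma8, this made 2 of 50 genes (4%) with groups apart, against 6.99% of all genes.

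In caffeine-drinking mice, Psmb6 and Psmb8 fell with learning and no proteasome gene rose. The 2 genes are 4% of the 50, where 2.13% of all genes were called lower and 3.16% higher. Psmb6 was at 101, 102, 93.0 and 113 CPM in HC_Caffeine and at 84.9, 93.0, 85.9 and 85.0 in MWM_Caffeine. The groups met at 93.0 CPM, and the log2 fold change was -0.23 ± 0.0638 (adjusted P = 0.0682), a 0.855-fold level. Psmb8 was at 3.69, 3.92, 3.66 and 4.46 CPM in HC_Caffeine and at 3.20, 3.15, 2.55 and 2.18 in MWM_Caffeine. Every trained mouse was lower, and the log2 fold change was -0.50 ± 0.148 (adjusted P = 0.0798), a 0.705-fold level that rests on 80 to 160 counts per library. Without HC_Caffeine replicate 17, which held the highest value of both, neither passed: Psmb6 had -0.17 with an adjusted P of 0.194 and Psmb8 -0.43 with 0.206. The groups were also apart for Psme1 (lower) and Psme3 (higher), which makes 3 of 50 genes (6%) against 10.9% of all genes. At an unadjusted P under 0.05, 2 were higher and 7 lower, against 3355 of all genes (18.8%) in both directions. Psmd5 had the next smallest P, with 0.14 ± 0.0529 (adjusted P = 0.164). The genes called lower were also 0 without HC_Caffeine replicate 2 or 9 or MWM_Caffeine replicate 30 or 40, and 1 without MWM_water replicate 33 or MWM_Caffeine replicate 22.

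The learning response under caffeine did not pass the test of a difference from that under water for any of the 50 genes or any other gene tested (0% in each direction). At an unadjusted P under 0.05, 2 proteasome genes were higher and 0 lower, against 648 of all genes in both directions, and DESeq2 called none of the 50. Psmb6 had a log2 fold change of -0.059 under water and -0.23 under caffeine, and the difference of these responses was -0.17 ± 0.0903, with a 95% interval of -0.36 to 0.023 (adjusted P = 1). For Psmb8 the difference was -0.37 ± 0.21, with an interval of -0.81 to 0.069 (adjusted P = 1). Psme3 had the smallest P, with 0.15 ± 0.0627 (adjusted P = 1), and Psma8 had 0.95 ± 0.413 (adjusted P = 1). These intervals do not show that the responses were alike. The water and caffeine comparisons of learning share no mouse, but each shares mice with the caffeine comparisons.

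Averaged over both drinks, 6 proteasome genes passed the test for learning: Psmd5 rose, and Psmb1, Psmb6, Psmb8, Psmb9 and Psmg4 fell. The gene that rose is 2% of the 50, against 7.81% of all genes called higher, and the 5 that fell are 10%, against 6.71% called lower. The shares are near the background, so the count itself is no result about the proteasome. At an unadjusted P under 0.05, 3 were higher and 9 lower, against 4545 of all genes (25.5%) in both directions. The median of the 50 genes was -0.038, against -0.013 for all genes, and -0.014 against -0.010 with the trend in length and GC content removed. Leaving out 1 library moved the median to -0.0087 (HC_water replicate 6), -0.0171 and -0.0156 (HC_Caffeine replicates 2 and 17) or -0.0135 and -0.0234 (MWM_Caffeine replicates 22 and 40). The mitochondrial share of counts moved with learning: it was 3.551% to 3.889% in HC_water and 3.294% to 3.443% in MWM_water, without overlap, and 3.462% to 4.495% in HC_Caffeine and 3.232% to 3.595% in MWM_Caffeine, with overlap. Its part in the 6 calls was not tested. The 95% interval lay within 1.25-fold for 44 of the 50 genes (88%), against 57.1% of all genes, again not matched for level.

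**Figure D3:**
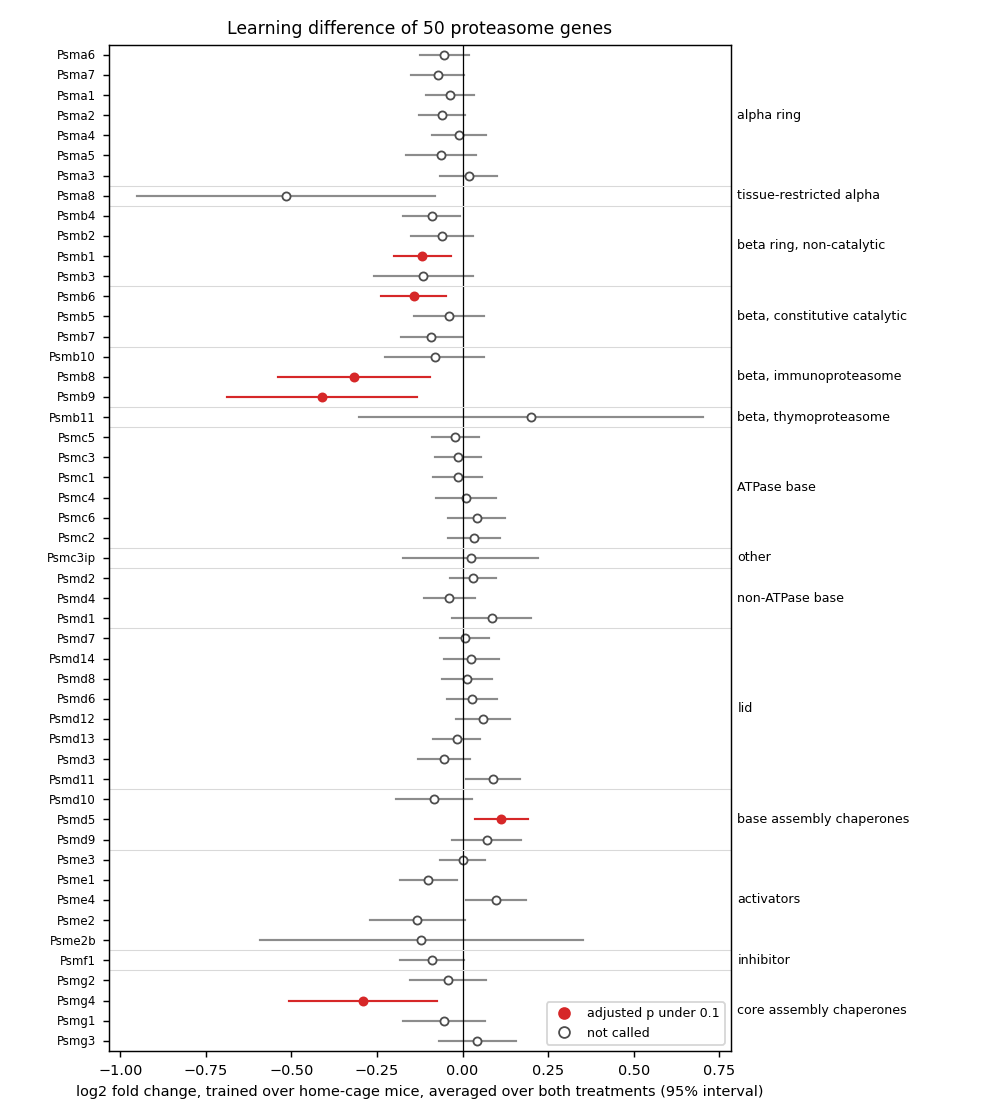
Log2 fold change of each proteasome gene in trained over home-cage mice, averaged over both drinks, with its 95% confidence interval (edgeR, 8 against 8 mice), genes sorted by role. Red points are the 6 genes with an adjusted P under 0.1, and most of the other intervals are narrow and include 0.

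Among the core genes, 6 of 7 alpha ring genes had a fold change below 0 in this average (median -0.054), and none passed. Their values ran from -0.073 (Psma7) to 0.018 (Psma3). All 4 non-catalytic beta genes were below 0 (median -0.10), and Psmb1 passed. It was at 117, 104, 106 and 106 CPM in HC_water, 112, 111, 107 and 115 in HC_Caffeine, 102, 101, 107 and 95.8 in MWM_water and 95.2, 111, 99.2 and 98.1 in MWM_Caffeine. The trained and home-cage mice overlapped under both drinks, and the log2 fold change was -0.12 ± 0.0399 (adjusted P = 0.0769). Of the constitutive catalytic genes, Psmb6 passed with -0.14 ± 0.0451 (adjusted P = 0.06), while Psmb7 had -0.091 (adjusted P = 0.188) and Psmb5 -0.039 (adjusted P = 0.648). Psmb6 in the water-drinking mice was at 106, 89.5, 91.8 and 101 CPM in the home cage and at 97.4, 91.4, 94.8 and 88.4 after learning, so the groups overlapped there.

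The immunoproteasome genes had the lowest median of the role groups with more than 1 gene, -0.32, and 2 of 3 passed. Psmb9 was at 1.94, 2.67, 1.93 and 2.29 CPM in HC_Caffeine and at 2.00, 2.08, 1.63 and 1.17 in MWM_Caffeine, an overlap that adds to the water groups given above. Its average log2 fold change was -0.41 ± 0.132 (adjusted P = 0.0630), a 0.752-fold level from 43 to 97 counts per library. Psmb8 was at 3.61, 2.93, 3.96 and 3.90 CPM in HC_water and at 4.01, 3.17, 3.06 and 2.87 in MWM_water. These groups overlapped, and its average was -0.32 ± 0.105 (adjusted P = 0.0702), a 0.802-fold level. Psmb10, which had the highest level of the 3, did not pass, with -0.081 ± 0.0684 and a 95% interval of -0.23 to 0.063 (adjusted P = 0.482). The ratio of Psmb6 to Psmb9 per kb was 88.7 ± 15 in HC_water, 91.6 ± 12 in HC_Caffeine, 120 ± 21 in MWM_water and 104 ± 27 in MWM_Caffeine, with overlap between all groups. Exons of Psmb9 share 212 bases with Tap1 on the opposite strand, and those of Psmb8 share 498 bases with an antisense gene, Gm20496. Whether the counting used strand was not given in the sources used here, so reads of these stretches cannot be assigned with certainty.

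**Figure D4:**
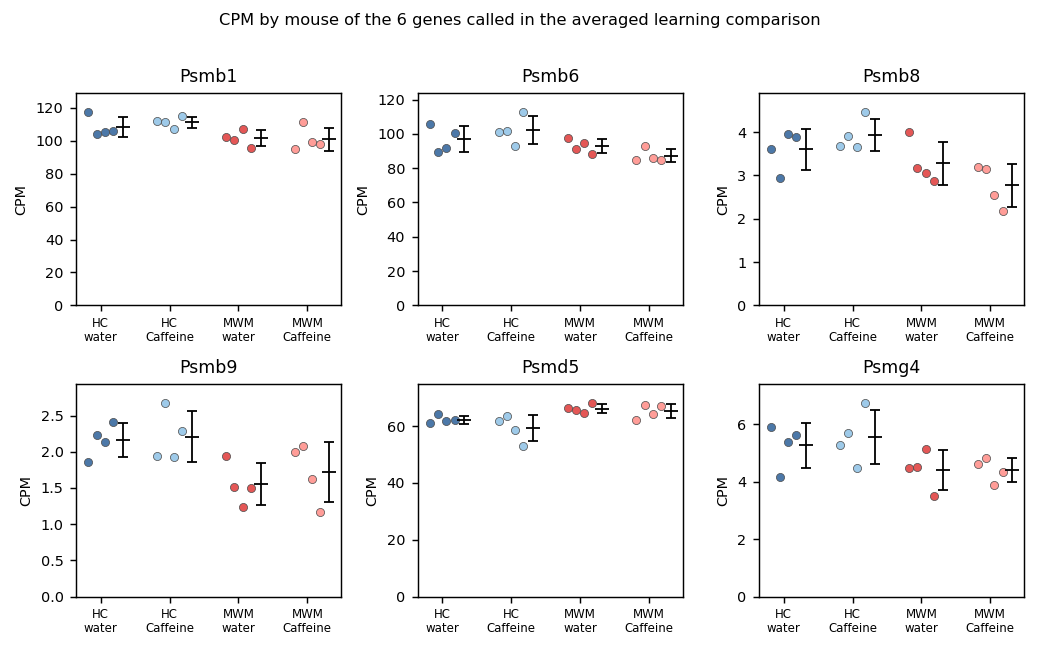
CPM of the 6 genes called in the averaged learning comparison in each mouse (points, by group), with the mean and SD of each group of 4 beside them and axes from 0. In caffeine-drinking mice the trained points of Psmb8 lie below all home-cage points, while Psmb1 and Psmg4 overlap.

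No base or lid gene of the regulatory particle was called lower, where 6.71% of all genes were. For so few genes that is near the background, so it is no result about the particle. Of the 6 ATPase genes, 3 were below and 3 above 0 (median -0.0014), between -0.021 (Psmc5) and 0.042 (Psmc6). Of the 8 lid genes, 6 were above 0 (median 0.020), the highest being Psmd11 with 0.090 ± 0.0373 (adjusted P = 0.141). The non-ATPase base genes ran from -0.038 (Psmd4, the ubiquitin receptor) to 0.086 (Psmd1). Psmd5, a chaperone that holds the ATPase base during assembly, was the gene that rose. It was at 61.1, 64.2, 61.7 and 62.0 CPM in HC_water, 61.7, 63.5, 58.8 and 53.1 in HC_Caffeine, 66.4, 65.6, 64.6 and 68.0 in MWM_water and 62.3, 67.3, 64.2 and 67.2 in MWM_Caffeine. The groups did not overlap under water and overlapped under caffeine, and the log2 fold change was 0.11 ± 0.0375 (adjusted P = 0.0692), a 1.08-fold level. Without HC_Caffeine replicate 17, which had its lowest value, it was 0.092 (adjusted P = 0.0915).

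Of the remaining factors, Psmg4, a chaperone of alpha ring assembly, fell. It was at 5.92, 4.14, 5.38 and 5.62 CPM in HC_water, 5.26, 5.69, 4.48 and 6.72 in HC_Caffeine, 4.46, 4.52, 5.13 and 3.49 in MWM_water and 4.61, 4.82, 3.87 and 4.34 in MWM_Caffeine. The groups overlapped under both drinks, and the log2 fold change was -0.29 ± 0.103 (adjusted P = 0.0877). It did not pass with the length and GC trend removed (-0.22, adjusted P = 0.108). Its 3 fellow chaperones did not pass, between -0.053 (Psmg1) and 0.043 (Psmg3). Of the activators, Psme1 had -0.10 ± 0.0395 (adjusted P = 0.121), Psme2 -0.13 ± 0.0661 (adjusted P = 0.220), Psme4 0.098 ± 0.0422 (adjusted P = 0.155) and Psme3 0.00051 ± 0.0314 (adjusted P = 0.994). Psmf1 had -0.089 ± 0.0445 (adjusted P = 0.217), and Psma8, at 0.267, 0.364, 0.301 and 0.246 CPM in MWM_Caffeine, had -0.52 ± 0.207 (adjusted P = 0.128). Psmc3ip, the gene that is no subunit, had 0.023 ± 0.0937 (adjusted P = 0.905).

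The role groups differ in length, with a median transcript of 737 bases for the non-catalytic beta genes and 1026 bases for the lid genes, and the libraries differed in their slope on length (above). With the length and GC trend removed, the averaged learning medians were -0.074 for the non-catalytic beta, -0.11 for the constitutive catalytic, -0.295 for the immunoproteasome, -0.038 for the alpha ring and 0.037 for the lid genes. The counts of genes below 0 were then 4 of 4, 2 of 3, 3 of 3, 6 of 7 and 1 of 8. The set of 6 calls was not stable to the choice of mice. Without HC_Caffeine replicate 17, the genes called lower went from 5 to 0, and without HC_water replicate 6 from 5 to 1, with fold changes that kept their direction. They also went to 0 without HC_water replicate 20, MWM_water replicate 33 or 38, or MWM_Caffeine replicate 30 or 40, to 2 without HC_water replicate 11 or MWM_Caffeine replicate 22, and to 3 without HC_Caffeine replicate 2 or 9 or MWM_water replicate 36. The call of Psmd5 was lost without HC_water replicate 20, MWM_water replicate 38 or MWM_Caffeine replicate 40 (adjusted P of 0.101, 0.106 and 0.112). The number of genes called higher was 0 without HC_water replicate 20 or MWM_Caffeine replicate 40, and 2 without HC_water replicate 8, HC_Caffeine replicate 2 or MWM_Caffeine replicate 22 or 27.

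Of 44 further genes of the pathway, 43 were tested and Paaf1 was not analysed here. In the averaged learning comparison, 4 of the 43 passed higher and 7 lower, with a median of -0.031, where 7.81% of all genes passed higher and 6.71% lower. Among regulators of proteasome transcription, Nfya, the DNA-contacting subunit of the CCAAT-binding complex, rose by 0.39 ± 0.0777 (adjusted P = 0.00639). It was at 16.9, 22.6, 21.2 and 18.4 CPM in HC_water, 16.9, 21.1, 20.8 and 15.0 in HC_Caffeine, 23.9, 26.0, 28.0 and 21.3 in MWM_water and 25.1, 24.4, 25.6 and 25.0 in MWM_Caffeine. Under caffeine all trained mice were above the home cage, with a log2 fold change of 0.45 (adjusted P = 0.0405). Ddi2, the protease that activates Nfe2l1, rose by 0.22 ± 0.0536 (adjusted P = 0.0218), and Nfyb, a partner of Nfya, fell by 0.12 (adjusted P = 0.0896). Nfe2l2, the factor of the antioxidant response, passed only in the caffeine mice, with 0.32 ± 0.0917 (adjusted P = 0.0756), and its difference between the drinks was 0.29 (adjusted P = 1). Nfe2l1, Nfyc and Ngly1 did not pass.

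Of the 6 ubiquitin and E1 genes, 1 passed higher and 1 lower, with 4 below 0 and a median of -0.049. Uba6, an E1 enzyme that activates ubiquitin, rose by 0.41 ± 0.0779 (adjusted P = 0.00445). It was at 19.9, 25.1, 22.4 and 20.1 CPM in HC_water, 22.5, 22.5, 24.6 and 16.02 in HC_Caffeine, 26.9, 26.2, 29.5 and 32.0 in MWM_water and 28.0, 26.4, 30.6 and 30.3 in MWM_Caffeine. Every trained mouse was above every home-cage mouse of either drink. Of the 11 measured subunits and cofactors outside the prefix, Ecpas, an adaptor of the proteasome, passed higher with 0.13 ± 0.0494 (adjusted P = 0.0998), and none passed lower. None of the 9 shuttle and segregase genes passed (median -0.031). The part of these genes in the proteasome values was not tested.

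The 10 antigen processing genes that interferon induces had the most calls of the 5 pathway lists. In the averaged learning comparison 5 fell and none rose, with 9 of 10 below 0 and a median of -0.18. B2m, the light chain of MHC class I, fell by 0.24 ± 0.0492 (adjusted P = 0.00658). It was at 89.3, 85.9, 82.1 and 87.9 CPM in HC_water, 101, 93.4, 80.6 and 99.7 in HC_Caffeine, 78.7, 81.9, 75.9 and 70.9 in MWM_water and 74.1, 82.5, 72.8 and 70.5 in MWM_Caffeine. The groups did not overlap under water, and under caffeine a single trained mouse lay above a single home-cage mouse. Tap1, the peptide transporter beside Psmb9, fell by 0.33 ± 0.102 (adjusted P = 0.0531), and H2-D1, H2-K1 and Tapbp also fell (-0.20, -0.17 and -0.18). Irf1 and Nlrc5, which drive these genes, did not pass.

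**Figure D5:**
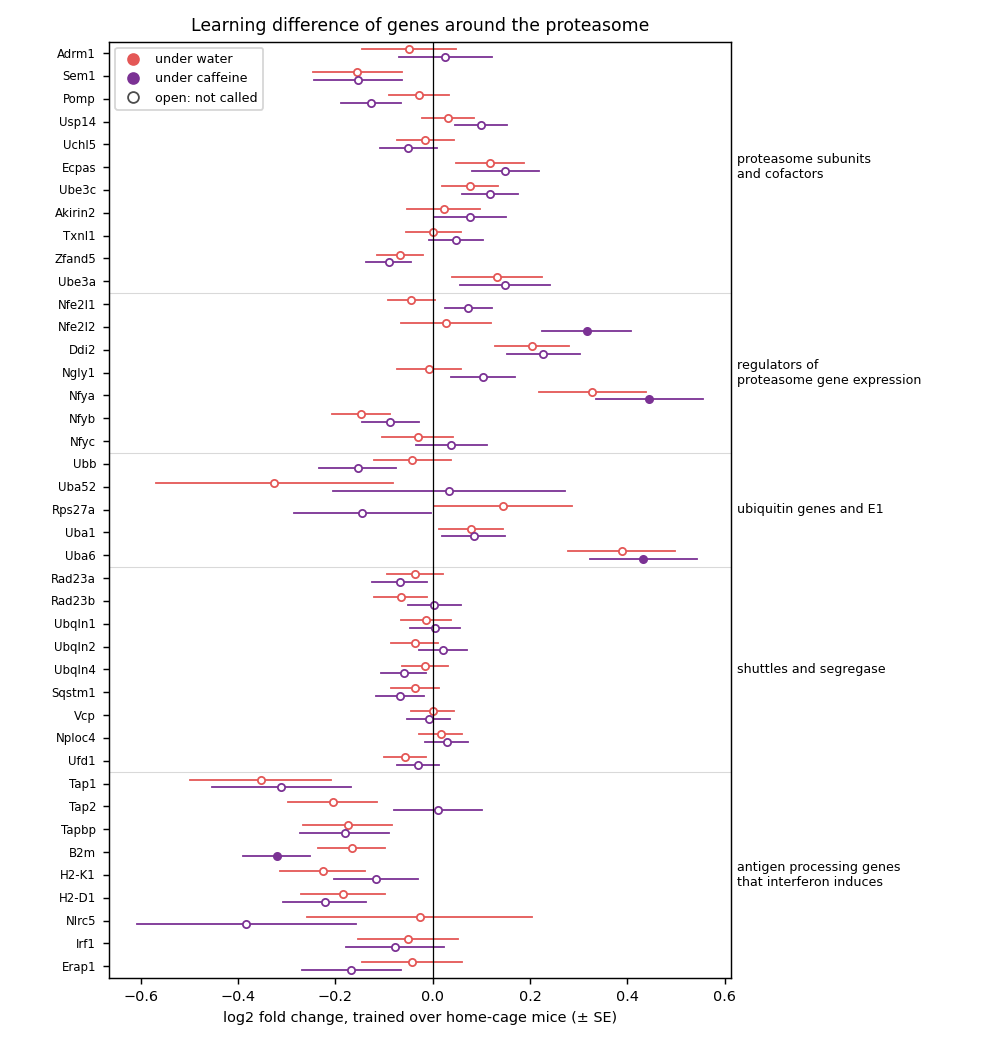
Log2 fold change (± SE) of genes of the pathway lists in trained over home-cage mice, shown under water and under caffeine, with filled points for an adjusted P under 0.1. Nfya, Uba6 and Nfe2l2 are above 0 and B2m below 0 under caffeine, and no gene of these lists is called under water.

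Markers of other cell types moved with the same comparison. Of 9 microglia genes, 6 fell in the averaged learning comparison and 8 were below 0 (median -0.17), among them Cx3cr1 (-0.19), Aif1 (-0.30) and C1qa (-0.20), while Tmem119, P2ry12 and Csf1r did not pass. Their summed level was 486 to 552 CPM in HC_water, 522 to 565 in HC_Caffeine, 477 to 510 in MWM_water and 451 to 522 in MWM_Caffeine. Of 9 choroid plexus genes, 8 fell (median -1.23), with summed levels of 308 to 2360 CPM in HC_water, 191 to 504 in HC_Caffeine, 164 to 436 in MWM_water and 116 to 204 in MWM_Caffeine. Of the endothelial genes 1 of 5 fell, of the astrocyte genes 1 of 6 and of the hippocampal neuron genes 1 of 8. Of the oligodendrocyte genes 0 of 6 fell. In this average, 6.71% of all genes tested were called lower. The average hid opposite shifts of the oligodendrocyte genes, none called. With learning, all 6 were above 0 under water (median 0.21) and all 6 below 0 under caffeine (median -0.408). Their summed level was 5113 to 7316 CPM in HC_water and 5195 to 8805 in HC_Caffeine. It was 5043 to 11740 in MWM_water and 4897 to 6860 in MWM_Caffeine. None of these lists had a defining marker at 0. The part of these cell types in the values of Psmb8, Psmb9 and the other 4 genes was not tested.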

How the data were processed

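RNA-Seq was measured in 16 libraries, 4 per group. Per the paper's methods and the labels, the authors made stranded mRNA libraries, sequenced 50-base single-end reads, used STAR and Bowtie 2 for alignment to the mm10 genome, and counted only reads with a unique alignment, with HTSeq 0.6.1p1 in union mode on Ensembl genes. The deposited values are raw counts, whole numbers without normalization or molecular identifiers. The strand setting of the counting was not given in the sources used here. Gene symbols, positions and lengths were taken from GENCODE M21 (GRCm38, the mm10 assembly), which matched 35247 of the 35328 genes.

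The main test was the quasi-likelihood test of edgeR 4.0.16 (R 4.3.3), fitted with a mean per group to all 16 libraries after filterByExpr and TMM scaling, with genes called at a Benjamini-Hochberg adjusted P under 0.1 over 17830 genes. The standard error is the absolute log2 fold change divided by the square root of F. The total counts per library, 23078094 to 49949281, gave standard errors of the log2 fold change with a median of 0.056 over the proteasome genes and 0.10 over all genes in each comparison of 2 groups. Nothing states that the mice of a group came from separate litters or batches. Libraries of a group differed beyond sampling noise (chi-square per degree of freedom of 5.65 or more), so none was counted as a duplicate. The alternatives were DESeq2 1.42.0 (its size factors in edgeR, and its Wald test), edgeR on the 8 libraries compared, a robust empirical Bayes fit, filters of at least 10 counts in every library or at least 1 in total, a threshold of 0.05 on the adjusted P, removal of each library's trend with length and GC content, and each library left out. The tools were tested on simulated data. The planted changes were larger than those of every proteasome gene called in the averaged learning comparison. None was planted in genes as low as Psmb8, Psmb9 and Psmg4, so that test does not cover results of this kind.

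The genes, role groups and lists were chosen with earlier results of these data known. Values are named for every gene called in a comparison, the 3 genes of smallest P in each, the highest and lowest gene of each role group, the catalytic beta subunits, and called genes of the pathway lists. Other members and the promoters printed were chosen after their values were seen. The lists hold subunits and cofactors, regulators, ubiquitin and E1 genes, shuttles and segregase, antigen processing genes, and markers of 6 cell types. The values of 2 genes of these lists are not reported here, though the list counts and medians include them.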

Additional observations from a re-analysis of the deposited data

Results flagged for a closer look

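In 204 groups of 4 mice (50 genes and their sum in each group), 4 held a mouse that stood apart from the other 3 by Dixon's test at the 95% level, fewer than the 1 in 20 that chance gives. Psmb1 was at 117 CPM in HC_water replicate 6 and at 104 to 106 in the other 3 mice. Psmb2, a non-catalytic beta subunit, was at 54.5 CPM in MWM_water replicate 24 and at 56.4 to 56.8 in the others. Psmb6 was at 93.0 CPM in MWM_Caffeine replicate 27, where the others had 84.9 to 85.9. Psmd3, a lid subunit, was at 114 CPM in MWM_Caffeine replicate 22 and at 118 to 119 in the others. Psmb1 and Psmb6 are among the genes called lower after learning. Without HC_water replicate 6, 1 gene was called lower in the averaged comparison, and without MWM_Caffeine replicate 27, 5 were.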

How the results depend on the processing

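The counts of proteasome genes called for caffeine, for learning under water and for the difference of the learning responses were 0 in each direction under all alternatives. For learning under caffeine, DESeq2's Wald test and the removal of the length and GC trend each called 1 gene higher (0 reported). The 2 genes called lower became 0 with edgeR on the 8 libraries compared, with the filter of at least 1 count in total and at an adjusted P under 0.05, and leaving out 1 library gave 0 to 3. For learning averaged over both drinks, 1 gene higher became 2 with DESeq2 and with the length and GC trend removed, and 0 with the filter of at least 1 count and at an adjusted P under 0.05. The 5 genes lower became 1 with the filter of at least 1 count and 0 at an adjusted P under 0.05. Leaving out 1 library gave 0 to 2 higher and 0 to 5 lower. The cause was not tested. Of the values recomputed for 24 log2 fold changes of single genes, 479 kept their direction and side of the threshold, 80 kept the direction but no longer passed, 2 (Psmd5 under caffeine) passed where the reported value did not, and 0 reversed. Most of the 24 had not passed in the main test, so most of the 479 only stayed uncalled. All 80 losses fell on the genes called for learning. With 1 library left out, those called in the averaged comparison passed in 5 (Psmb1 and Psmg4) to 13 (Psmd5) of 16 fits. Under caffeine, Psmb6 and Psmb8 each passed in 10 of 16. No paired analysis was possible because the replicate numbers are those of single animals and no 2 groups share a number.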
